A study of Mus musculus with 18 samples.

Results

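Pancreatic acinar cells from xCT KO mice were compared after 4 days and after 1 day of culture. The comparison covered every gene that passed a filter on low counts, 13203 of the 46603 genes in the count table. It rests on 6 of the 18 RNA-seq libraries of the series, 3 from KO day 4 and 3 from KO day 1. The other libraries came from KO cells at day 0 and from WT cells at days 0, 1 and 4, again 3 for each, and the series describes the replicates as biological. The KO mice carry a constitutive loss of Slc7a11, which encodes xCT, so the cells of both time points lack it, as do any other pancreatic cells that came along in the preparation. Acinar cells were isolated fresh from the pancreas and kept in suspension in Advanced RPMI medium, with no added agent named for these libraries. The age and sex of the mice behind each library are not given in the sources used here, nor whether each culture came from a different mouse. P-values therefore measure spread between cultures, estimated over all 18 libraries in 1 fit and not over these 6 alone. Every KO library had reads of Xist, a transcript of female cells (269 to 1035 counts at KO day 1), and 0 counts of the Y-linked Ddx3y. WT replicate 1 had Ddx3y reads on each day and 0 or 1 counts of Xist. By these reads the KO libraries were female and the WT libraries of mixed sex.

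Slc7a11 was checked in every library first. KO libraries had 3, 6 and 1 counts at day 0, 15, 15 and 19 at day 1, and 23, 33 and 30 at day 4. WT libraries had 50, 48 and 49 counts at day 0, 757, 618 and 830 at day 1, and 2192, 2286 and 2037 at day 4. Every KO library thus lay far below the WT libraries of its day. These raw counts are not scaled for library size or composition, so they are not to be read as changes between the days. Which exons are deleted is not given in the sources used here, so the remaining KO reads may lie outside the deletion.

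xCT is the transport subunit of system xc-, which takes up cystine in exchange for glutamate. Cells reduce cystine to cysteine and use it to make glutathione, the cofactor with which GPX4 repairs lipid peroxides. When that repair fails, iron-dependent lipid peroxidation kills the cell by ferroptosis. Acinar cells make and secrete digestive enzymes under the control of factors such as PTF1A, RBPJL, NR5A2 and BHLHA15. Under stress or in culture they shut down enzyme production and take on features of duct and embryonic progenitor cells, a process called acinar-to-ductal metaplasia.

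The libraries held 17809132 to 19533947 counts at KO day 4 and 14561075 to 15641110 at KO day 1. Transcripts of 34 digestive enzyme and secretory genes took 10.3 to 12.3% of all counts at KO day 4 and 65.4 to 66.5% at KO day 1. This change in composition makes the scaling matter. With TMM scaling, which centres the bulk of genes, the median log2 fold change of all 13203 genes was 0.04. With library totals it was 1.86, with totals that left out the enzymes 0.48, and with upper quartile scaling 0.12. Levels below are TMM-scaled CPM (counts scaled to library size), fold changes are KO day 4 over KO day 1 relative to the bulk of genes, and a direction that library totals turn round is marked where it is given. Acinar identity was checked on the enzymes themselves. They took the shares above, beside duct marker shares of 4.03, 3.95 and 3.97% of counts at KO day 4 and 1.40, 1.58 and 1.42% at KO day 1. In TMM-scaled CPM the duct marker sums were 11946, 11844 and 12268 at KO day 4 and 14427, 16821 and 15999.6 at KO day 1. The direction of the duct marker total between the days thus turned with the scaling. KO day 1 replicate 1 held more transcripts of matrix genes than the other KO day 1 libraries, and the counts for matrix and fibroblast genes are given with and without it. Whether counting used strand is not known, so reads of a gene and of a partner on the other strand cannot be told apart, and the values of Rbpjl (partner Matn4), Mest (Copg2), Slc39a5 (Ankrd52), Aldh1l2 (D10Wsu102e), Gpx2 (Fntb), Cp (Hps3) and Plvap (Gtpbp3) are uncertain for that reason.

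Between the time points, 3465 genes were higher at KO day 4 (26.2% of the genes tested) and 3581 were lower (27.1%) at an adjusted p under 0.05 in edgeR's quasi-likelihood test, while 6157 were not called. A change of more than 2-fold was called for 459 genes in the upward direction (3.48%) and 756 in the downward direction (5.73%) by edgeR's test against that fold. With library totals the split became 12031 higher and 347 lower, and with totals that left out the enzymes 6757 and 1645. Counts for gene groups are to be read against these shares.

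Digestive enzyme transcripts were lower in KO cells at day 4. All 33 tested genes of the acinar enzyme list fell, 31 of them past 2-fold, with a median log2 fold change of -5.39 against 0.04 for all genes. With library totals 30 fell and 1 rose, at a median of -3.56, and the count of 33 stood when any 1 KO library was left out. Pnlip, pancreatic triglyceride lipase, lies at chr19:58670365-58681786 on GRCm38. It had 401, 316 and 364 CPM in the KO day 4 libraries, against 72545, 78999 and 84881 CPM in the KO day 1 libraries (log2 fold change -7.77 ± 0.21 SE, edgeR adjusted p = 2.8e-23). No Pnlip value at day 4 came near any at day 1. Cela1, an elastase family protease, had 642, 489 and 550.0 CPM in the KO day 4 libraries, against 77894, 78995 and 86129.7 CPM in the KO day 1 libraries (log2 fold change -7.18 ± 0.19 SE). Cel, the bile salt-activated lipase, had 277, 196 and 266 CPM in the KO day 4 libraries, against 40458, 40690.3 and 44910.1 CPM in the KO day 1 libraries (-7.41 ± 0.22 SE). All of these libraries fell into separate groups by day. Losses were smaller for Ctrb1, a chymotrypsinogen, with 9693, 8350.5 and 10576 CPM in the KO day 4 libraries, against 131326, 142746 and 152116 CPM in the KO day 1 libraries (-3.9 ± 0.20 SE). Prss2, a trypsinogen, had 5007, 5359 and 5679 CPM in the KO day 4 libraries, against 38189, 38667 and 41597 CPM in the KO day 1 libraries (-2.88 ± 0.16 SE). Reg1, a secreted lectin, fell least of the digestive enzyme genes plotted, with 3929.7, 3455 and 4215 CPM in the KO day 4 libraries, against 16071, 13123 and 12597 CPM in the KO day 1 libraries (-1.85 ± 0.17 SE), which library totals brought below the threshold. Its relative Reg3a, a lectin of injured acinar cells, had 148, 124 and 159 CPM in the KO day 4 libraries, against 291, 235 and 294 CPM in the KO day 1 libraries (log2 fold change -0.93 ± 0.82 SE, edgeR adjusted p = 0.362), was not called, and had a positive sign with library totals (0.90). The Reg3a values of the 2 days did not overlap, and the error came from the fit of all 18 libraries. Among 19 alternative settings, 1 called Reg3a lower. Trypsinogens and amylases belong to families of near-identical copies, so reads could be split among them, and the values of Prss2, Gm5771 (-6.71 ± 0.65 SE) and Amy2a5 (-5.4 ± 0.33 SE) are uncertain for that reason.

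Granule genes fell more often than they rose. Zg16, a zymogen granule lectin counted in the enzyme list, had 29.3, 21.7 and 24.9 CPM in the KO day 4 libraries, against 6218, 6340.4 and 5955 CPM in the KO day 1 libraries (log2 fold change -7.93 ± 0.19 SE, edgeR adjusted p = 1.2e-24). Of 21 tested granule and exocytosis genes, 13 fell and 4 rose, with a median of -0.75, whereas library totals called 3 lower and 14 higher. Aqp12, an acinar aquaporin, had 5.01, 4.39 and 5.66 CPM in the KO day 4 libraries, against 161, 163 and 172 CPM in the KO day 1 libraries (-5.04 ± 0.18 SE). Rab3d, a GTPase on zymogen granules, had 37.5, 33.7 and 41.6 CPM in the KO day 4 libraries, against 159, 148 and 145 CPM in the KO day 1 libraries (-2.0 ± 0.12 SE), a fall that did not pass the threshold with library totals. Some parts of the secretory machinery went the other way. Cckar, the receptor for cholecystokinin, had 70.7, 59.4 and 80.6 CPM in the KO day 4 libraries, against 50.1, 45 and 44.4 CPM in the KO day 1 libraries (0.59 ± 0.13 SE), and Atp2a2, the SERCA2 calcium pump, changed by 0.61 ± 0.09 SE.

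The acinar transcription factors split. Of 10 tested, 6 rose (Ptf1a, Nr5a2, Gata4, Gata6, Foxp2 and Mecom) and 4 fell, among them Rbpjl, Bhlha15 and Xbp1, and with library totals 8 rose and 0 fell. The number that rose was 4 without KO day 4 replicate 3. Ptf1a, which drives enzyme genes together with RBPJL, had 64.1, 63.9 and 73.7 CPM in the KO day 4 libraries, against 36.4, 35.3 and 33.6 CPM in the KO day 1 libraries (log2 fold change 0.94 ± 0.20 SE, edgeR adjusted p = 0.00114). Its partner Rbpjl had 17.2, 17.6 and 24.9 CPM in the KO day 4 libraries, against 76, 63.6 and 68.5 CPM in the KO day 1 libraries (log2 fold change -1.8 ± 0.13 SE, edgeR adjusted p = 3.4e-12), and library totals put its change at 0.026. Both genes separated the days without overlap, in opposite directions under TMM. Nr5a2, a nuclear receptor of the acinar lineage, had 32.8, 31.9 and 33.3 CPM in the KO day 4 libraries, against 16.2, 22.2 and 16.6 CPM in the KO day 1 libraries (0.83 ± 0.11 SE). Mecom, a zinc finger factor, had 17, 15.2 and 17.9 CPM in the KO day 4 libraries, against 4.07, 6.48 and 3.64 CPM in the KO day 1 libraries (1.81 ± 0.17 SE). Bhlha15 (MIST1), which organises the secretory apparatus, had 21.2, 16.9 and 24.4 CPM in the KO day 4 libraries, against 65.2, 64.1 and 63.1 CPM in the KO day 1 libraries (-1.62 ± 0.31 SE, 0.21 with library totals). Xbp1, the factor of the unfolded protein response that supports secretion, changed by -0.78 ± 0.10 SE and was positive with library totals (1.06).

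**Figure D1:**
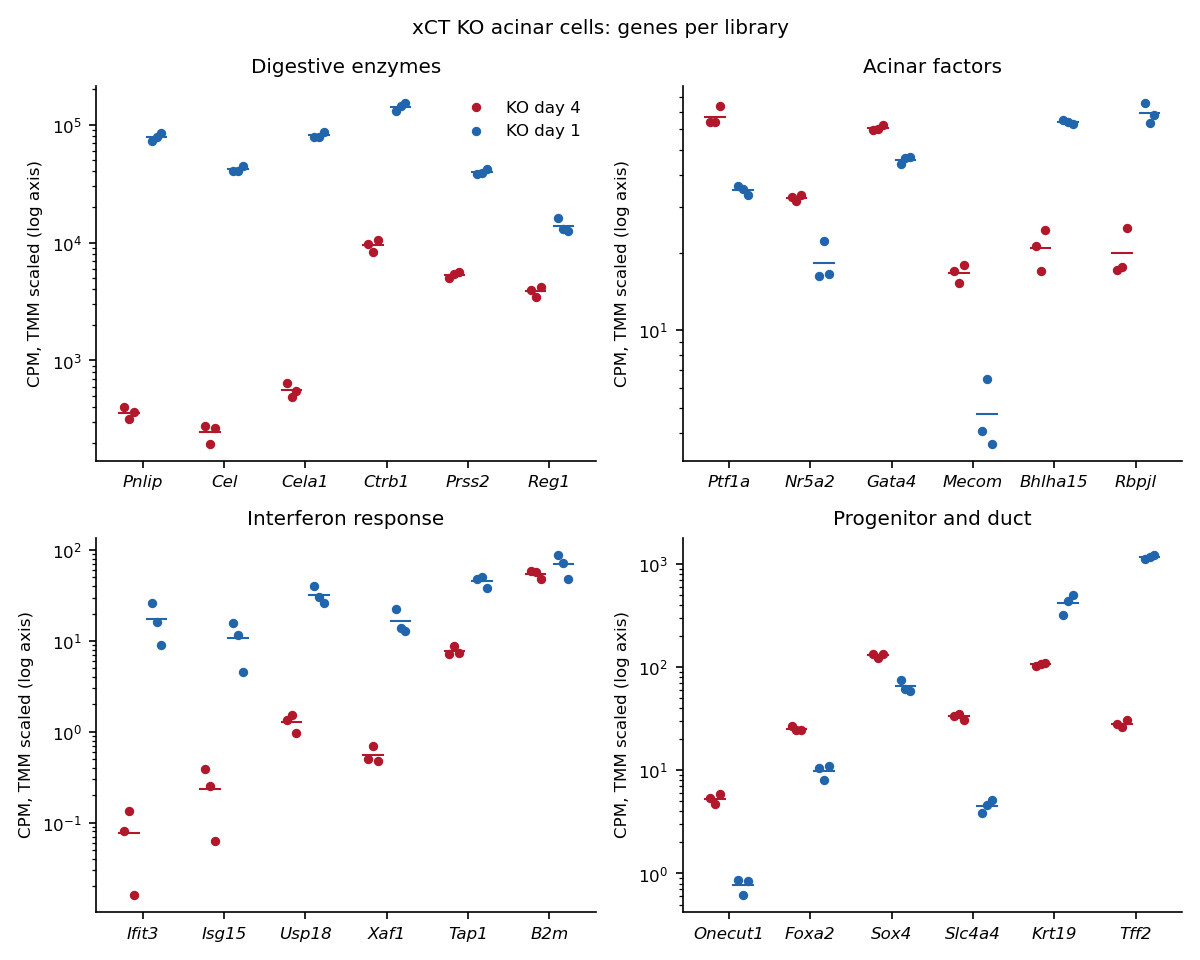
TMM-scaled CPM (log axis) of digestive enzyme, acinar factor, interferon and progenitor or duct genes in the 3 KO day 4 libraries (red, left) and the 3 KO day 1 libraries (blue, right); each point is a library and each line a group mean. Digestive enzyme and interferon genes lie lower at KO day 4, Ptf1a, Nr5a2, Gata4 and Mecom lie higher, and B2m overlaps between the days. Under library totals B2m would lie higher at KO day 4, while the changes of Bhlha15 and Rbpjl (0.21 and 0.026) were not called.

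Progenitor factors were higher at KO day 4 more often than lower. Of 19 tested, 11 rose and 2 fell, with a median of 0.88, and with library totals 19 rose and 0 fell. Onecut1 (HNF6), a factor of the early pancreas and of ducts, had 5.37, 4.66 and 5.9 CPM in the KO day 4 libraries, against 0.868, 0.614 and 0.851 CPM in the KO day 1 libraries (log2 fold change 2.77 ± 0.24 SE, edgeR adjusted p = 4.8e-11). Foxa2, a pioneer factor of endoderm, had 26.8, 24.7 and 24.5 CPM in the KO day 4 libraries, against 10.4, 8.12 and 11.1 CPM in the KO day 1 libraries (1.36 ± 0.12 SE). Sox4 had 132, 123 and 133 CPM in the KO day 4 libraries, against 74.4, 60.9 and 59.3 CPM in the KO day 1 libraries (1.0 ± 0.12 SE). In each of these genes the lowest day 4 library lay above the highest day 1 library. Tead1, the DNA-binding partner of YAP, changed by 0.88 ± 0.11 SE. Sox9, the factor most used to mark ducts and progenitors, had 16.6, 13.5 and 15.2 CPM in the KO day 4 libraries, against 21.8, 23 and 24.5 CPM in the KO day 1 libraries (-0.61 ± 0.13 SE, but 1.22 with library totals), and Myc changed by -0.97 ± 0.16 SE (0.86 with library totals).

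Duct markers moved in both directions. Of 18 tested, 7 rose and 4 fell with a median of 0.84, while library totals called 15 higher and 1 lower. Slc4a4, the sodium bicarbonate cotransporter of ducts, had 33.5, 35.1 and 31 CPM in the KO day 4 libraries, against 3.87, 4.57 and 5.11 CPM in the KO day 1 libraries (log2 fold change 2.88 ± 0.17 SE, edgeR adjusted p = 3.1e-14). Spp1, osteopontin, had 354, 256 and 159.9 CPM in the KO day 4 libraries, against 83, 64.8 and 35.3 CPM in the KO day 1 libraries (2.07 ± 0.34 SE), and Krt7 had 41.1, 33.8 and 37 CPM in the KO day 4 libraries, against 23.4, 18.7 and 16.7 CPM in the KO day 1 libraries (0.93 ± 0.16 SE). All day 4 values of these genes exceeded all day 1 values. Krt19, the classical duct keratin, had 101, 108 and 109 CPM in the KO day 4 libraries, against 321, 432 and 503 CPM in the KO day 1 libraries (-1.98 ± 0.13 SE, not called with library totals). Tff2, a secreted trefoil peptide, had 28.4, 26.1 and 30.4 CPM in the KO day 4 libraries, against 1110.0, 1174 and 1231 CPM in the KO day 1 libraries (-5.37 ± 0.15 SE). Muc1 and Krt8 fell by 1.25 and 1.64 log2 units but were positive with library totals (0.58 and 0.20). Krt19 and Tff2 thus ran against Slc4a4, Spp1 and Krt7.

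Claudins and other junction genes changed in both directions. Of 25 tested, 7 rose and 12 fell, against 23 and 0 with library totals, and 4 rose without KO day 4 replicate 1. Cldn6, a claudin of embryonic epithelium, had 29.4, 31.7 and 33.5 CPM in the KO day 4 libraries, against 7.48, 6.55 and 4.1 CPM in the KO day 1 libraries (2.37 ± 0.15 SE). Cldn2, which forms cation pores, had 25, 18.9 and 12.5 CPM in the KO day 4 libraries, against 5.61, 3.89 and 2.79 CPM in the KO day 1 libraries (2.18 ± 0.31 SE). Cldn4 had 371, 421 and 379 CPM in the KO day 4 libraries, against 1456, 1517 and 1674 CPM in the KO day 1 libraries (-1.99 ± 0.11 SE, not called with library totals). Cldn6 and Cldn2 were higher in every day 4 library and Cldn4 was lower in each.

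Where the mean was 5 CPM or more and the days did not overlap, the genes with the largest rises came from several families. Serpina6, corticosteroid-binding globulin, had 39.3, 33.2 and 45.8 CPM in the KO day 4 libraries, against 0.20, 0.0682 and 0.155 CPM in the KO day 1 libraries (log2 fold change 8.08 ± 0.83 SE, edgeR adjusted p = 2.9e-06). Serpinb9b, a serpin, had 12.9, 13.2 and 15.6 CPM in the KO day 4 libraries, against 0.401, 0.341 and 0.232 CPM in the KO day 1 libraries (5.38 ± 0.28 SE). Mmp7, a matrix metalloproteinase of epithelia, had 22.3, 16.8 and 10.9 CPM in the KO day 4 libraries, against 0.935, 0.546 and 0.309 CPM in the KO day 1 libraries (4.76 ± 0.45 SE). At day 1 these genes stood under 1 CPM in each KO library. Mest, an imprinted gene, had 53.6, 57.4 and 54 CPM in the KO day 4 libraries, against 4.74, 2.25 and 2.32 CPM in the KO day 1 libraries (4.13 ± 0.21 SE). Ctse, cathepsin E, changed by 4.73 ± 0.27 SE, Anxa13 by 4.68 ± 0.21 SE, Acta1, skeletal alpha actin, by 4.4 ± 0.50 SE, Abca1, a cholesterol exporter, by 3.98 ± 0.23 SE and Shisa2 by 3.95 ± 0.23 SE. The largest falls by the same rule were led by Hamp2, a hepcidin, with 0.0486, 0.0673 and 0.0475 CPM in the KO day 4 libraries, against 16.4, 18.3 and 17.6 CPM in the KO day 1 libraries (-8.2 ± 0.27 SE). They held Slc39a5, a zinc transporter, with 1.7, 1.48 and 1.88 CPM in the KO day 4 libraries, against 173, 184 and 163 CPM in the KO day 1 libraries (-6.67 ± 0.14 SE). The others were Pla2g1b (-7.41 ± 0.20 SE), Ctrl (-7.11 ± 0.21 SE), Ctrc (-6.71 ± 0.17 SE), Gm5771 and the pseudogene 1810018F18Rik, beside Pnlip, Cela1, Cel, Zg16 and Ifit3, whose values stand with their groups. Ctrc overlaps Cela2a on the same strand and Casp9 on the other, and the strand setting of the counting is not given, so its value is uncertain.

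Genes of the interferon response were sharply lower at KO day 4. Interferons act on cell surface receptors, and the transcription factors these switch on bind the interferon-stimulated response element upstream of antiviral genes. Of 42 tested members of this list, 39 fell, 33 of them past 2-fold, and none rose, with a median log2 fold change of -3.24. With library totals 29 fell and 8 rose, at a median of -1.43, and without KO day 1 replicate 1 the counts were 40 and 1. Irf1, H2-K1 and B2m were not called, and Mx1 and Ifi27l2a did not pass the filter on low counts. The promoter stretches of 6 members that fell and of B2m are shown here because these genes carry the element. Sequences are RefSeq promoters of build GRCm38.p6, from 250 bases before to 50 after the start site, printed in the direction of the gene, with matches to GAAANNGAAA on either strand in capitals. They lie at chr19:34583353-34583436 (Ifit3, plus strand), chr19:34640765-34640833 (Ifit1, plus), chr3:142559979-142560034 (Gbp3, plus), chr12:26456543-26456592 (Rsad2, minus), chr4:156200855-156200916 (Isg15, minus), chr5:92349073-92349122 (Cxcl10, minus) and chr2:122147528-122147577 (B2m, plus).
Ifit3: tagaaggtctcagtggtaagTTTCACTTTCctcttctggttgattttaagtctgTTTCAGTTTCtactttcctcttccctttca
Ifit1: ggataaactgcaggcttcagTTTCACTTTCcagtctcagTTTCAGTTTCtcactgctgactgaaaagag
Gbp3: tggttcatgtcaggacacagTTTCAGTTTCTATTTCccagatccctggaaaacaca
Rsad2: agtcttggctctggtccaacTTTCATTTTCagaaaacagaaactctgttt
Isg15: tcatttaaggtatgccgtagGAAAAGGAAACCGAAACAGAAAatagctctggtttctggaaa
Cxcl10: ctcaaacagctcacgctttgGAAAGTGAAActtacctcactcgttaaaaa
B2m: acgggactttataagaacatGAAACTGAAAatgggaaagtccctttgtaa
The letters were found in 18 of the 33 list genes with a promoter in the table (54.5%) and in 3.99% of all 27025 promoters. In the stretches printed they overlap no match to the other motifs searched. Such a match describes the letters and is not evidence of binding.

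Ifit3, which belongs to a family of RNA-binding antiviral proteins, had 0.0811, 0.135 and 0.0158 CPM in the KO day 4 libraries, against 26.3, 16.3 and 8.97 CPM in the KO day 1 libraries (log2 fold change -7.74 ± 0.48 SE, edgeR adjusted p = 1.1e-09). Rsad2 (viperin), an antiviral enzyme, had 1.62, 1.52 and 1.74 CPM in the KO day 4 libraries, against 145, 149.8 and 109.6 CPM in the KO day 1 libraries (-6.37 ± 0.24 SE). Isg15, a ubiquitin-like modifier, had 0.389, 0.253 and 0.0633 CPM in the KO day 4 libraries, against 15.8, 11.7 and 4.56 CPM in the KO day 1 libraries (-5.49 ± 0.45 SE). For all of them the highest day 4 value lay well under the lowest day 1 value. Reads of Ifit3 may be shared with its near copy Ifit3b. Usp18, which removes ISG15, had 1.36, 1.53 and 0.965 CPM in the KO day 4 libraries, against 39.7, 30.1 and 26 CPM in the KO day 1 libraries (-4.63 ± 0.16 SE), and Xaf1 had 0.503, 0.69 and 0.475 CPM in the KO day 4 libraries, against 22.6, 13.8 and 12.8 CPM in the KO day 1 libraries (-4.88 ± 0.23 SE). Ifit1 changed by -6.56 ± 0.34 SE, Gbp3, an interferon-induced GTPase, by -6.52 ± 0.43 SE and Rtp4 by -4.64 ± 0.19 SE. Tap1, the peptide transporter of antigen presentation, had 7.12, 8.87 and 7.28 CPM in the KO day 4 libraries, against 48.1, 50.1 and 38.5 CPM in the KO day 1 libraries (-2.56 ± 0.13 SE). B2m, the light chain of MHC class I, had 59.3, 57.7 and 47.4 CPM in the KO day 4 libraries, against 89.1, 72.8 and 48.4 CPM in the KO day 1 libraries (log2 fold change -0.36 ± 0.18 SE, edgeR adjusted p = 0.0989). Its libraries overlapped between the days, and its change was 1.47 with library totals.

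Inflammatory cytokine and chemokine transcripts were mostly lower. Of 26 tested, 16 fell and 4 rose, with a median of -1.32, and library totals gave 9 and 13. Cxcl10, an interferon-inducible chemokine, had 0.276, 0.387 and 0.237 CPM in the KO day 4 libraries, against 9.75, 6.48 and 2.32 CPM in the KO day 1 libraries (-4.36 ± 0.42 SE). Ccl2, which attracts monocytes, had 0.324, 0.286 and 0.111 CPM in the KO day 4 libraries, against 15.6, 15.8 and 4.56 CPM in the KO day 1 libraries (-5.63 ± 0.60 SE). Il6 had 0.195, 0.118 and 0.0633 CPM in the KO day 4 libraries, against 5.54, 8.12 and 0.851 CPM in the KO day 1 libraries (-5.23 ± 0.75 SE). KO day 1 replicate 3 was the lowest day 1 library for each of them, yet stood above all day 4 libraries. Csf3 changed by -5.6 ± 0.61 SE and Ccl5 by -4.54 ± 0.61 SE. Cxcl12, a homeostatic chemokine, went the other way with 57.9, 51.5 and 63.1 CPM in the KO day 4 libraries, against 13, 6.41 and 5.88 CPM in the KO day 1 libraries (2.76 ± 0.21 SE), as did Lcn2, lipocalin 2, with 139, 130.4 and 90.4 CPM in the KO day 4 libraries, against 55.1, 67.9 and 32.4 CPM in the KO day 1 libraries (1.21 ± 0.26 SE).

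Genes induced by ATF4, the factor that answers amino acid shortage and ER stress, were lower at KO day 4 relative to the bulk of genes. Of 33 tested, 30 fell and none rose, with a median of -1.24, but library totals turned this round to 26 higher and 3 lower. Psph, Slc1a4 and Gdf15 were not called. Promoter stretches of 6 members with the CHOP-ATF4 element are shown, from the same RefSeq table, with TGATGNAA on either strand in capitals. They lie at chr1:191183416-191183463 (Atf3, minus strand), chr7:126625553-126625600 (Nupr1, minus), chr14:55540143-55540190 (Pck2, plus), chr2:152344019-152344066 (Trib3, minus), chr6:7693205-7693252 (Asns, minus) and chr2:119351029-119351076 (Chac1, plus).
Atf3: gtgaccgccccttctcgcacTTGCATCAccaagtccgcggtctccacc
Nupr1: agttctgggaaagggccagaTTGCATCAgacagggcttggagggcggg
Pck2: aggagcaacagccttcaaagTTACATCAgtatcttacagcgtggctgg
Trib3: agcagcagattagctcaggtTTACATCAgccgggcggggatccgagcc
Asns: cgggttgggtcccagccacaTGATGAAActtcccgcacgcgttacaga
Chac1: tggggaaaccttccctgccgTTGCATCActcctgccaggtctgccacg
These letters were found in 9 of 27 list genes with a promoter (33.3%) and in 4.51% of all promoters, with no overlap with another motif searched in the stretches printed.

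Atf3, a stress factor downstream of ATF4, had 11.7, 15.1 and 16.2 CPM in the KO day 4 libraries, against 115, 89.4 and 82.8 CPM in the KO day 1 libraries (log2 fold change -2.74 ± 0.15 SE, edgeR adjusted p = 2.3e-12). Nupr1, a stress protein of the acinar cell, had 1152, 1424 and 1309 CPM in the KO day 4 libraries, against 6396, 7574 and 7936 CPM in the KO day 1 libraries (-2.5 ± 0.18 SE). Both were lower in every day 4 library, and both were also called lower with library totals. Asns, asparagine synthetase, had 114, 119 and 125 CPM in the KO day 4 libraries, against 282, 319.5 and 312 CPM in the KO day 1 libraries (-1.35 ± 0.10 SE, but 0.48 with library totals). Trib3, a pseudokinase that restrains the response, had 28.1, 31.9 and 35.6 CPM in the KO day 4 libraries, against 85.6, 89.8 and 93.8 CPM in the KO day 1 libraries (-1.49 ± 0.17 SE, 0.34 with library totals). Pck2, mitochondrial PEP carboxykinase, changed by -1.75 ± 0.12 SE (0.09 with library totals), and Aldh1l2, a mitochondrial folate enzyme, by -1.62 ± 0.11 SE (0.21 with library totals). Eif4ebp1, a brake on translation, changed by -1.96 ± 0.12 SE and was not called with library totals. Aminoacyl-tRNA synthetases, which charge tRNAs and are partly under ATF4 control, showed small changes. Of 20 tested, 15 fell and 1, Qars, rose, whereas library totals called 20 higher. Vars had 56.9, 57.4 and 62.4 CPM in the KO day 4 libraries, against 105, 121 and 138 CPM in the KO day 1 libraries (-1.04 ± 0.10 SE, 0.79 with library totals), and Qars had 71.1, 74.3 and 74.1 CPM in the KO day 4 libraries, against 52.5, 54.9 and 53.8 CPM in the KO day 1 libraries (0.44 ± 0.09 SE).

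Heat shock chaperones, which HSF1 induces when proteins misfold, fell in part. Of 21 tested, 9 fell and 3 rose, or 1 and 17 with library totals. Dnajb1, a partner of HSP70, had 18.7, 17.3 and 16.5 CPM in the KO day 4 libraries, against 73.4, 60.4 and 64.7 CPM in the KO day 1 libraries (log2 fold change -1.92 ± 0.10 SE, edgeR adjusted p = 1.4e-16). Hspb1 had 66.6, 77.4 and 71.1 CPM in the KO day 4 libraries, against 277, 299 and 311 CPM in the KO day 1 libraries (-2.04 ± 0.11 SE). Neither of these falls was called with library totals. Hsph1 had 55, 54.1 and 49.7 CPM in the KO day 4 libraries, against 141, 142 and 111 CPM in the KO day 1 libraries (-1.31 ± 0.11 SE, 0.52 with library totals), and Hspa4l changed by 0.84 ± 0.15 SE. Of 32 tested genes of ER folding, 14 fell and 6 rose, against 3 and 27 with library totals, and 2 rose without KO day 4 replicate 1. Pdia2, a pancreatic disulfide isomerase on that list, changed by -7.04 ± 0.30 SE. With KO day 1 replicate 1 or replicate 3 left out, 4 ER folding genes rose, and heat shock genes that rose numbered 2 without any KO library other than KO day 1 replicate 1.

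Genes of glycolysis and the hypoxia response were lower at KO day 4. Of 33 tested, 25 fell and 3 rose, with a median of -1.44, but library totals gave 5 and 17. Ndrg1, a HIF1 target, had 28.8, 32.7 and 32.3 CPM in the KO day 4 libraries, against 454, 513 and 661 CPM in the KO day 1 libraries (log2 fold change -4.12 ± 0.13 SE, edgeR adjusted p = 9.6e-22). Tpi1, triosephosphate isomerase, had 54.1, 54.2 and 53.6 CPM in the KO day 4 libraries, against 199, 276 and 323 CPM in the KO day 1 libraries (-2.3 ± 0.13 SE). Pdk1, which keeps pyruvate from the mitochondria, had 10.6, 9.5 and 12.2 CPM in the KO day 4 libraries, against 35, 42.7 and 51.1 CPM in the KO day 1 libraries (-1.99 ± 0.12 SE, not called with library totals). Day 4 values of these genes were the lower ones in every library. Car9, carbonic anhydrase 9 and also a HIF1 target, had 61.9, 57.3 and 58.1 CPM in the KO day 4 libraries, against 26.6, 28.6 and 43 CPM in the KO day 1 libraries (0.86 ± 0.21 SE), in the other direction.

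Genes of zinc handling, oxidant defence and lipid synthesis were examined next. Mt1, a metallothionein that binds zinc, had 92.9, 104 and 107 CPM in the KO day 4 libraries, against 1329.7, 1623 and 1615 CPM in the KO day 1 libraries (log2 fold change -3.91 ± 0.32 SE, edgeR adjusted p = 2.3e-07). Of 11 tested metallothioneins and zinc transporters, 6 fell and 3 rose (3 and 7 with library totals), and 1 rose without KO day 4 replicate 1. Of 30 tested targets of NRF2, the factor that answers oxidants, 12 fell and 6 rose, with a median of 0.07 against 0.04 for all genes (2 and 26 with library totals). Among them Hmox1, heme oxygenase 1, had 34.7, 32.2 and 28.6 CPM in the KO day 4 libraries, against 95.7, 171 and 159 CPM in the KO day 1 libraries (-2.15 ± 0.24 SE, not called with library totals). Sqstm1, the autophagy receptor p62, had 246, 262 and 255 CPM in the KO day 4 libraries, against 1045, 1390.1 and 1431 CPM in the KO day 1 libraries (-2.34 ± 0.13 SE). Prdx1, a peroxiredoxin, had 216, 212 and 200.0 CPM in the KO day 4 libraries, against 99.1, 94 and 78.5 CPM in the KO day 1 libraries (1.21 ± 0.09 SE). Hmox1 and Sqstm1 were lower and Prdx1 higher in every day 4 library. Osgin1 changed by -2.19 ± 0.14 SE, Me1, malic enzyme, by 1.68 ± 0.16 SE and Ephx1, epoxide hydrolase, by 1.28 ± 0.14 SE. Of 29 tested genes of sterol and fatty acid synthesis, 18 fell and 3 rose, or 1 and 25 with library totals. Srebf2, their master factor, changed by -1.07 ± 0.11 SE and Msmo1, a sterol oxidase, by -1.51 ± 0.14 SE (0.76 and 0.33 with library totals). Insig1, which holds the SREBP complex in the ER, changed by -1.86 ± 0.13 SE and was not called with library totals. Scd1, the stearoyl-CoA desaturase that makes monounsaturated fatty acids, had 125, 119 and 135 CPM in the KO day 4 libraries, against 39.6, 38.6 and 37.3 CPM in the KO day 1 libraries (1.71 ± 0.12 SE).

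**Figure D2:**
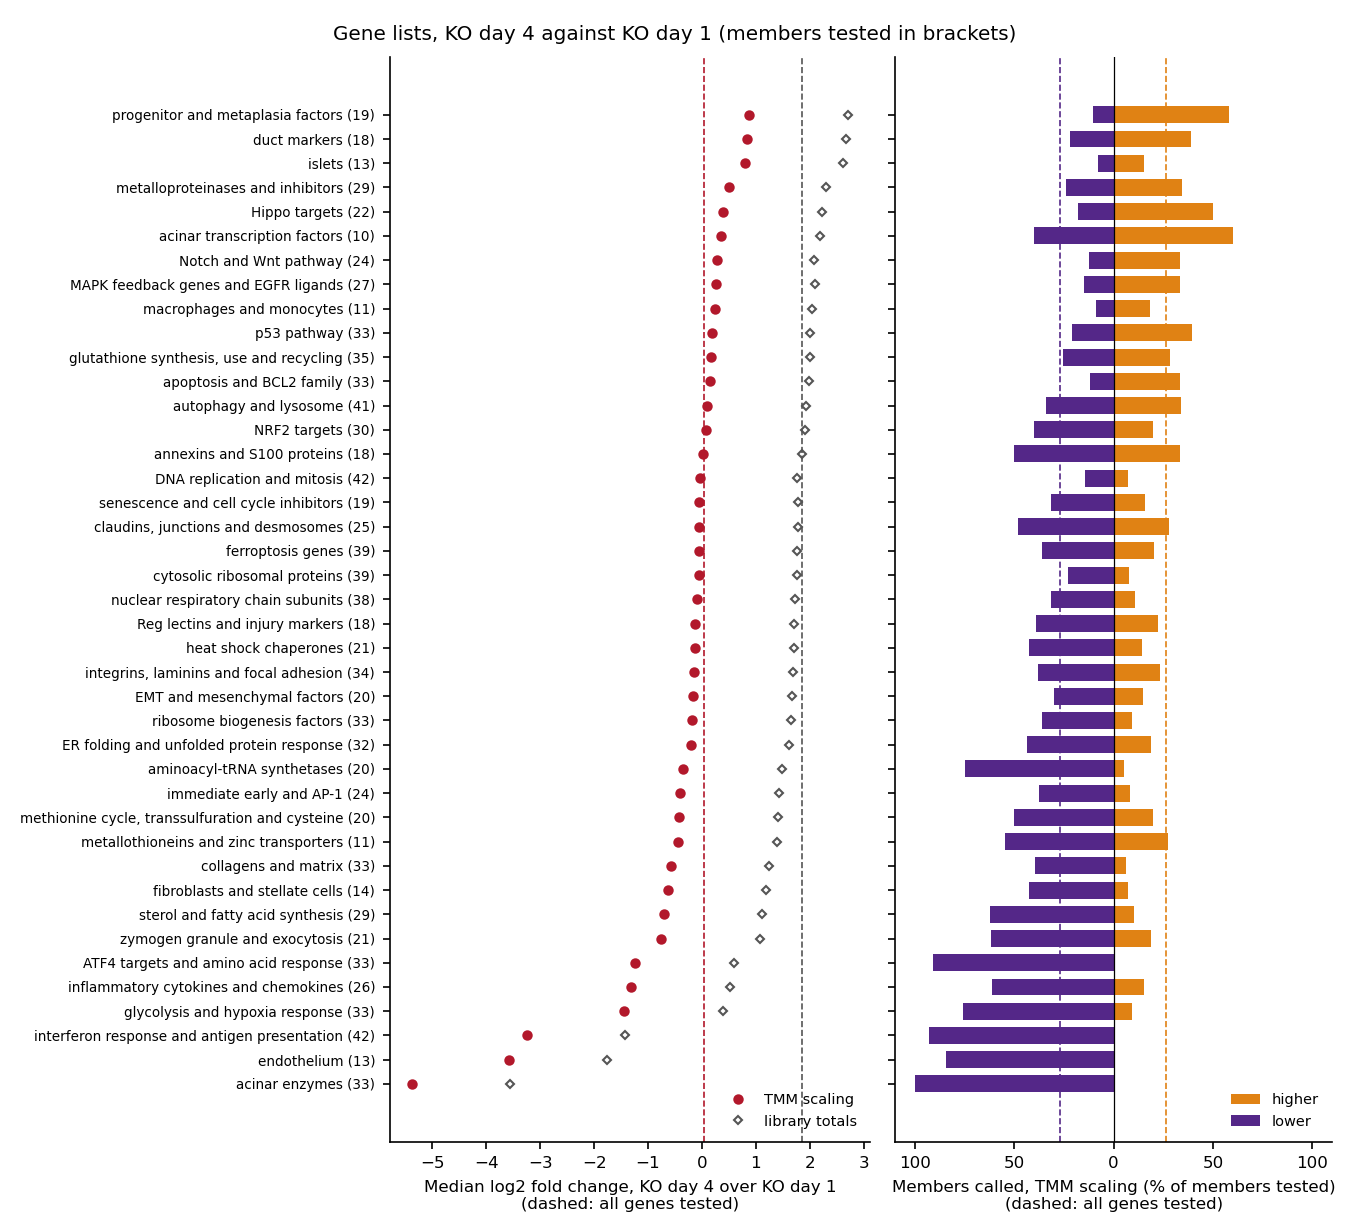
Left, median log2 fold change of KO day 4 over KO day 1 for each gene list with at least 10 tested members, under TMM scaling and under library totals, with the medians of all genes (0.04 and 1.86) dashed; right, percentage of tested members called higher or lower under TMM. Acinar enzymes, endothelium and interferon genes have the lowest medians, and the ATF4, hypoxia and cytokine lists lie below the median of all genes under both scalings; their own medians are below 0 under TMM and above 0 under library totals.

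Slc7a11 reads were few in these cells at both times, and genes of cysteine and glutathione changed unevenly. Slc7a11 itself had 0.373, 0.556 and 0.475 CPM in the KO day 4 libraries, against 1.0, 1.02 and 1.47 CPM in the KO day 1 libraries (log2 fold change -1.29 ± 0.27 SE, edgeR adjusted p = 1.6e-04). With library totals its change was 0.52 and was not called. Slc3a2, the heavy chain that pairs with xCT and with other amino acid transporters, had 121, 144 and 142 CPM in the KO day 4 libraries, against 318, 349.9 and 339 CPM in the KO day 1 libraries (log2 fold change -1.31 ± 0.11 SE, edgeR adjusted p = 4.3e-11; 0.525 with library totals). Of 35 tested genes of glutathione synthesis, use and recycling, 10 rose and 9 fell, with a median of 0.17, or 33 and 1 with library totals. The number that fell was 6 without KO day 4 replicate 1 or KO day 1 replicate 2.

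In synthesis, Gclc, the catalytic chain of glutamate-cysteine ligase, had 114, 144 and 111 CPM in the KO day 4 libraries, against 130.2, 175 and 186 CPM in the KO day 1 libraries (log2 fold change -0.41 ± 0.16 SE, edgeR adjusted p = 0.0452). Its modifier subunit Gclm had 28.1, 25.9 and 24.7 CPM in the KO day 4 libraries, against 31.2, 34.9 and 28.9 CPM in the KO day 1 libraries (log2 fold change -0.27 ± 0.11 SE, edgeR adjusted p = 0.0404). Gss, glutathione synthetase, had 23.4, 23.7 and 22.4 CPM in the KO day 4 libraries, against 17.5, 20.1 and 19 CPM in the KO day 1 libraries (log2 fold change 0.30 ± 0.12 SE, edgeR adjusted p = 0.0459). These calls were close to the threshold. Gclc was no longer called without KO day 4 replicate 1 or 3 or KO day 1 replicate 2 or 3 (edgeR adjusted p = 0.138, 0.151, 0.142 and 0.178). Gclm was no longer called without KO day 4 replicate 2 or 3 or KO day 1 replicate 1 or 2 (edgeR adjusted p = 0.102, 0.151, 0.0562 and 0.225). For Gss the values were 0.0986, 0.115 and 0.0657 without KO day 4 replicate 1, 2 or 3, and 0.133 and 0.0795 without KO day 1 replicate 1 or 3, as edgeR adjusted p. Library totals turned Gclc and Gclm to 1.43 and 1.56. In recycling, Gsr, glutathione reductase, had 29.2, 29.1 and 27.7 CPM in the KO day 4 libraries, against 26.7, 33.1 and 25.4 CPM in the KO day 1 libraries (log2 fold change 0.01 ± 0.12 SE, edgeR adjusted p = 0.941), with overlapping libraries. Ggt1, which breaks down glutathione outside the cell, had 12.4, 14.2 and 14 CPM in the KO day 4 libraries, against 123, 131 and 117 CPM in the KO day 1 libraries (log2 fold change -3.19 ± 0.13 SE, edgeR adjusted p = 1.0e-17), and its days were far apart. Chac1, which degrades glutathione inside the cell, changed by -1.03 ± 0.31 SE (0.79 with library totals), and without KO day 4 replicate 1 its edgeR adjusted p was 0.0517.

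In use, Gpx4, which reduces lipid peroxides, had 44.7, 47.3 and 51.7 CPM in the KO day 4 libraries, against 54.5, 43.4 and 51.5 CPM in the KO day 1 libraries (log2 fold change -0.06 ± 0.12 SE, edgeR adjusted p = 0.712). Its libraries overlapped, and its change was 1.77 with library totals. Library totals called Gpx4 higher (edgeR adjusted p = 1.4e-13), as did totals without enzymes (0.39, edgeR adjusted p = 0.00281). So did limma on log2(FPKM + 1) and log2(FPKM + 0.1), at 0.52 and 0.54 (limma adjusted p = 0.0053 and 0.00506). Gpx2, a glutathione peroxidase of epithelia, had 35.7, 32.2 and 30.2 CPM in the KO day 4 libraries, against 8.21, 8.12 and 6.11 CPM in the KO day 1 libraries (2.12 ± 0.14 SE). Mgst1, a microsomal glutathione transferase that also acts on lipid peroxides, had 44.1, 40.03 and 34.7 CPM in the KO day 4 libraries, against 10.1, 7.78 and 6.65 CPM in the KO day 1 libraries (2.26 ± 0.14 SE). Gsta4, which conjugates the lipid aldehyde hydroxynonenal, had 19.1, 18.5 and 16.8 CPM in the KO day 4 libraries, against 0.467, 1.64 and 1.01 CPM in the KO day 1 libraries (4.13 ± 0.37 SE). These were higher in every day 4 library, unlike Gpx4. Cysteine can also be made from methionine. Of 20 tested genes of the methionine cycle, transsulfuration and cysteine breakdown, 10 fell and 4 rose, with a median of -0.42, or 1 and 17 with library totals. The number that rose was 2 without KO day 4 replicate 1 or KO day 1 replicate 1, and 1 without KO day 4 replicate 2 or KO day 1 replicate 3. Cbs, which makes cystathionine on the way to cysteine, had 84.2, 85.5 and 90.7 CPM in the KO day 4 libraries, against 183, 197 and 199 CPM in the KO day 1 libraries (-1.15 ± 0.10 SE, 0.68 with library totals). Gnmt, which consumes S-adenosylmethionine, had 0.567, 0.758 and 1.03 CPM in the KO day 4 libraries, against 31.6, 33.8 and 31.4 CPM in the KO day 1 libraries (-5.35 ± 0.24 SE).

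Of 39 tested ferroptosis genes, 8 rose and 14 fell, with a median of -0.06, and with library totals 37 rose and 0 fell. The number that rose was 5 without KO day 4 replicate 1, KO day 1 replicate 2 or KO day 1 replicate 3. Acsl4, which loads polyunsaturated fatty acids into lipids, had 25.6, 26.1 and 26 CPM in the KO day 4 libraries, against 15.1, 22.6 and 18.3 CPM in the KO day 1 libraries (log2 fold change 0.47 ± 0.12 SE, edgeR adjusted p = 0.00116). Limma on log2(FPKM + 1) and log2(FPKM + 0.1) gave Acsl4 0.21 and 0.26 and did not call it (limma adjusted p = 0.172 and 0.187). Cp, the ferroxidase ceruloplasmin, had 136, 119.8 and 95.2 CPM in the KO day 4 libraries, against 29.97, 34.1 and 19.1 CPM in the KO day 1 libraries (2.07 ± 0.17 SE). Mboat1, a lysophospholipid acyltransferase, had 33.7, 36 and 39.5 CPM in the KO day 4 libraries, against 18.9, 13.2 and 15.5 CPM in the KO day 1 libraries (1.2 ± 0.12 SE). Each was higher in all day 4 libraries. Ptgs2, a cyclooxygenase often read as a sign of ferroptosis, had 27.4, 18.4 and 12.3 CPM in the KO day 4 libraries, against 11.1, 9.89 and 1.93 CPM in the KO day 1 libraries (log2 fold change 1.31 ± 0.48 SE, edgeR adjusted p = 0.0416). KO day 1 replicate 3 was its lowest library, and leaving that library out gave an edgeR adjusted p of 0.0942. Without KO day 4 replicate 1 or 2 or KO day 1 replicate 2 the edgeR adjusted p was 0.148, 0.0738 and 0.0616. Ptgs2 was also not called by DESeq2, with no filter on low counts, or by limma on log2(FPKM + 0.1). Fits of the 6 KO libraries of these days alone and of the 9 KO libraries alone did not call it either. It was called in 10 of 19 alternative settings.

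**Figure D3:**
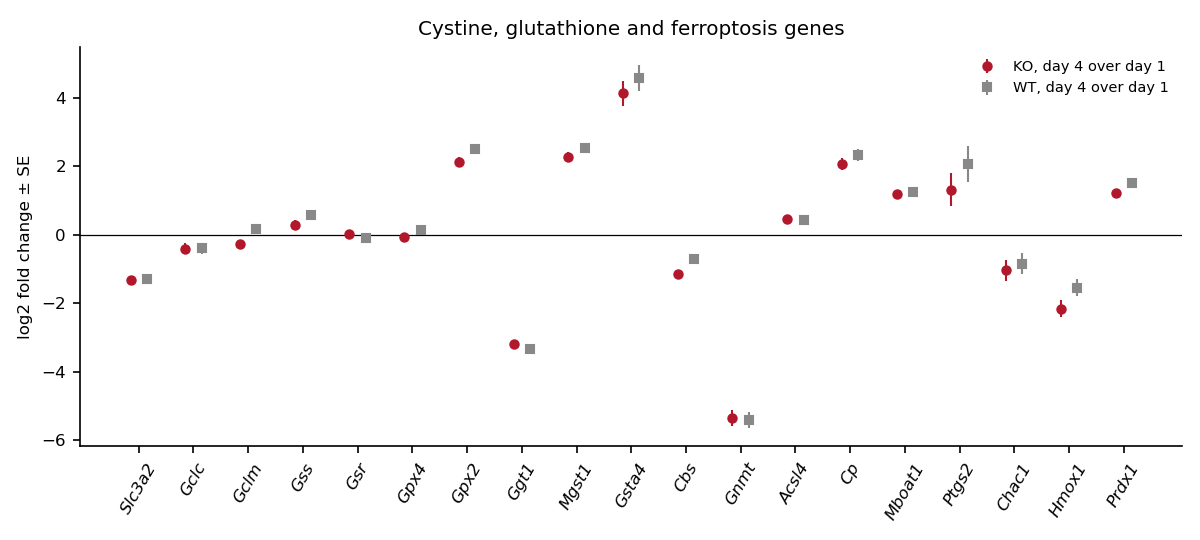
Log2 fold change ± SE of day 4 over day 1 (y axis, edgeR, TMM scaling) for genes of glutathione, methionine and ferroptosis (x axis) in KO cells (red circles) and WT cells (grey squares), 3 libraries per time point. Gpx2, Mgst1, Gsta4 and Cp lie above 0 and Ggt1 and Gnmt far below it in both genotypes, while Gsr and Gpx4 lie near 0; with library totals Gclc, Gclm, Gpx4, Chac1, Cbs and Slc3a2 would lie above 0 in KO cells.

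p53 targets and death genes moved in both directions. Of 33 tested p53 pathway genes, 13 rose and 7 fell, with a median of 0.18 (30 and 0 with library totals). Pmaip1 (NOXA), which promotes apoptosis, had 19.8, 20.8 and 22.4 CPM in the KO day 4 libraries, against 1.74, 0.75 and 1.32 CPM in the KO day 1 libraries (log2 fold change 4.04 ± 0.20 SE, edgeR adjusted p = 2.6e-15). Ccng1, cyclin G1, had 249, 265 and 259 CPM in the KO day 4 libraries, against 124, 119 and 132 CPM in the KO day 1 libraries (1.04 ± 0.09 SE), and Polk, a translesion DNA polymerase, had 15.1, 17.1 and 16.8 CPM in the KO day 4 libraries, against 6.68, 3.27 and 5.11 CPM in the KO day 1 libraries (1.7 ± 0.20 SE). All were higher in each day 4 library. Gadd45a, a growth arrest gene, had 9.99, 11 and 12.4 CPM in the KO day 4 libraries, against 34.3, 33.8 and 35.5 CPM in the KO day 1 libraries (-1.63 ± 0.12 SE, 0.20 with library totals). Of 33 tested apoptosis genes, 11 rose and 4 fell (31 and 1 with library totals), and 8 fell without KO day 1 replicate 3. Bmf, a BH3-only protein, had 22.7, 21 and 24.4 CPM in the KO day 4 libraries, against 7.54, 5.8 and 7.66 CPM in the KO day 1 libraries (1.7 ± 0.18 SE). Bcl2l1 (BCL-XL), which blocks apoptosis, had 42.4, 50.3 and 45.6 CPM in the KO day 4 libraries, against 66.3, 89.6 and 91.5 CPM in the KO day 1 libraries (-0.84 ± 0.11 SE, 1.0 with library totals).

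Few cell cycle genes were called. Of 42 tested genes of DNA replication and mitosis, 3 rose, 6 fell and 33 were not called, with a median of -0.03 (34 higher and 1 lower with library totals). The number that fell was 3 without KO day 4 replicate 2 or KO day 1 replicate 3, and the number that rose was 2 without KO day 4 replicate 2 or KO day 1 replicate 2. Rrm2, the regulated subunit of ribonucleotide reductase, had 1.52, 1.35 and 1.46 CPM in the KO day 4 libraries, against 7.74, 8.59 and 6.73 CPM in the KO day 1 libraries (log2 fold change -2.41 ± 0.23 SE, edgeR adjusted p = 6.2e-10). Mcm3, part of the replicative helicase, had 4.88, 4.65 and 3.81 CPM in the KO day 4 libraries, against 7.81, 8.05 and 8.9 CPM in the KO day 1 libraries (-0.89 ± 0.18 SE, 0.94 with library totals). Ccnd1, cyclin D1, had 9.6, 9.26 and 9.21 CPM in the KO day 4 libraries, against 6.74, 6.82 and 4.8 CPM in the KO day 1 libraries (0.60 ± 0.15 SE). Rrm2 and Mcm3 were lower and Ccnd1 higher in every day 4 library.

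Hippo targets rose more often than they fell. Of 22 tested, 11 rose and 4 fell (19 and 0 with library totals), with a median of 0.39. Ctgf, a secreted target of YAP and TEAD, had 49.96, 50.6 and 49.9 CPM in the KO day 4 libraries, against 20.9, 13.6 and 8.82 CPM in the KO day 1 libraries (log2 fold change 1.79 ± 0.21 SE, edgeR adjusted p = 4.2e-06), and Ajuba had 19.4, 18.8 and 17.6 CPM in the KO day 4 libraries, against 5.14, 4.02 and 2.79 CPM in the KO day 1 libraries (2.21 ± 0.17 SE). The letters GGAATG of the TEAD site were found in 9 of 16 list promoters (56.2%) and in 16.6% of all promoters. Of 27 tested MAPK feedback genes and EGFR ligands, 9 rose and 4 fell (25 and 1 with library totals), and 6 rose without KO day 4 replicate 1. Dusp4, a phosphatase that restrains ERK, had 32.9, 32.7 and 32.4 CPM in the KO day 4 libraries, against 11.5, 12.1 and 12.5 CPM in the KO day 1 libraries (1.44 ± 0.14 SE), while Egf had 1.17, 1.36 and 1.47 CPM in the KO day 4 libraries, against 32.5, 28.8 and 29.5 CPM in the KO day 1 libraries (-4.5 ± 0.15 SE). In the lysosome and autophagy list, 14 rose and 14 fell of 41 tested (40 and 1 with library totals). Ctsh, cathepsin H, changed by 1.7 ± 0.13 SE and Psap, prosaposin, by 0.88 ± 0.10 SE. Of 9 tested mitochondrially encoded genes, 7 fell and none rose (1 and 7 with library totals). Among these were mt-Rnr1, a mitochondrial ribosomal RNA, with 37.5, 30.5 and 38.8 CPM in the KO day 4 libraries, against 255, 272 and 306 CPM in the KO day 1 libraries (-2.96 ± 0.20 SE), and mt-Cytb at -1.27 ± 0.14 SE (0.56 with library totals). Of 39 cytosolic ribosomal protein genes, 3 rose and 9 fell (39 and 0 with library totals).

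Short motifs were searched on both strands in the promoters of 10 pairs of motif and list, the interferon, CHOP-ATF4 and TEAD letters among them. The AP-1 letters TGANTCA were in 0 of 21 promoters of MAPK feedback genes and EGFR ligands and in 8.97% of all promoters. The sterol element TCACNCCAC was in 1 of 20 promoters of sterol and fatty acid synthesis (5%, against 1.44% of all). For the antioxidant response element TGACNNNGC the count was 9 of 24 NRF2 targets (37.5%, against 14%), and for the metal response element TGCNCNC it was 10 of 10 metallothioneins and zinc transporters (against 53.6%). The heat shock element, GAANNTTCNNGAA or TTCNNGAANNTTC, was in 4 of 17 chaperone promoters (23.5%, against 0.662%). Among 34 promoters of DNA replication and mitosis the cell cycle homology region TTTGAA was in 13 (38.2%, against 20.2%), and the E2F letters TTTGGCGC, TTTCCCGC or TTTGGCGG were in 7 (20.6%, against 2.39%). Overlap among these matches was not counted. Among the 9807 tested genes with a promoter, the metal, antioxidant and E2F letters were more common than in all promoters, at 64.9, 17.2 and 4.25%. The other letters were less common there, with AP-1 at 6.44%, sterol 1.37%, heat shock 0.571% and TTTGAA 14%. The interferon, CHOP-ATF4 and TEAD letters were at 3.54, 2.71 and 14.5%.

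Markers of other pancreatic cells were read beside these changes, since fewer cells of a type and less RNA per cell cannot be told apart in bulk libraries. Endothelial markers were lower at KO day 4. Of 13 tested, 11 fell and none rose (8 and 2 with library totals), with a median of -3.58. Their summed level was 5.38, 2.73 and 2.83 CPM at KO day 4 and 48.1, 47.3 and 25 CPM at KO day 1. Cdh5 (VE-cadherin), which joins endothelial cells, had 0.13, 0.0842 and 0.0949 CPM in the KO day 4 libraries, against 6.07, 5.87 and 4.1 CPM in the KO day 1 libraries (log2 fold change -5.64 ± 0.45 SE, edgeR adjusted p = 1.0e-09). Flt1, a VEGF receptor, had 0.0973, 0 and 0.0316 CPM in the KO day 4 libraries, against 3.74, 4.57 and 3.02 CPM in the KO day 1 libraries (-6.3 ± 0.60 SE), and Plvap changed by -3.44 ± 0.37 SE. Cdh5 and Flt1 were thus near 0 at KO day 4. The part of these cells in the lower interferon, cytokine and hypoxia genes was not tested.

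Markers of fibroblasts and stellate cells summed to 127, 98.8 and 97.7 CPM at KO day 4 and 87.9, 49.7 and 29.6 CPM at KO day 1. Of 14 tested, 1 (Ly6a) rose and 6 fell, Dpt, Lum, Mfap5 and Rgs5 among them. The sum and most calls thus ran in opposite directions. Ly6a had a mean FPKM of 48.5 at KO day 4 and 13.4 at KO day 1. Without KO day 1 replicate 1 the counts of markers that rose and fell were 4 and 3 (library totals gave 8 and 1). Without KO day 4 replicate 2, 4 rose and 4 fell, and without KO day 4 replicate 3, 1 rose and 4 fell. Matrix genes depended on the same library. Of 33 tested, 2 rose and 13 fell, but without KO day 1 replicate 1 these were 7 and 6, and with library totals 17 and 1. The number that rose was 0 without KO day 4 replicate 1 or KO day 1 replicate 2 or 3, 5 without KO day 4 replicate 2 and 1 without KO day 4 replicate 3. Col1a1, the main fibrillar collagen, had 21.9, 9.95 and 17.1 CPM in the KO day 4 libraries, against 13.8, 2.39 and 3.48 CPM in the KO day 1 libraries (log2 fold change 1.29 ± 0.56 SE, edgeR adjusted p = 0.0682), and was not called. Without KO day 1 replicate 1 its log2 fold change was 2.49 (edgeR adjusted p = 0.00449). Fbn1, fibrillin 1, had 2.64, 1.5 and 1.55 CPM in the KO day 4 libraries, against 9.28, 1.71 and 1.55 CPM in the KO day 1 libraries (log2 fold change -1.16 ± 0.56 SE, edgeR adjusted p = 0.0985), and its sign was positive without KO day 1 replicate 1 (0.22) and with library totals (0.65). For both genes KO day 1 replicate 1 was the highest day 1 library. Col4a1, a basement membrane collagen, had 16.2, 11.8 and 12.9 CPM in the KO day 4 libraries, against 53.4, 52.3 and 29.2 CPM in the KO day 1 libraries (log2 fold change -1.73 ± 0.24 SE, edgeR adjusted p = 2.8e-05; 0.10 with library totals), and it overlaps Col4a2 on the other strand. Col7a1, the anchoring fibril collagen of epithelia, had 6.11, 6.28 and 9.08 CPM in the KO day 4 libraries, against 51.5, 57.2 and 59 CPM in the KO day 1 libraries (-2.96 ± 0.23 SE). Timp2, a protease inhibitor, had 17.7, 15.7 and 16.3 CPM in the KO day 4 libraries, against 5.61, 4.71 and 3.95 CPM in the KO day 1 libraries (1.79 ± 0.18 SE). Without KO day 1 replicate 1 the changes of Col4a1, Col7a1 and Timp2 were -1.58, -3.02 and 1.93, and each was still called.

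Macrophage markers summed to 69.8, 54.9 and 44.8 CPM at KO day 4 and 52.1, 72.8 and 70.2 CPM at KO day 1, with 2 higher and 1 lower of 11 tested (9 and 0 with library totals). The number that rose was 1 without KO day 4 replicate 1 or KO day 1 replicate 1 or 3. Lyz2, lysozyme, had 12.3, 2.63 and 4.02 CPM in the KO day 4 libraries, against 0.534, 0.682 and 0.155 CPM in the KO day 1 libraries (log2 fold change 3.74 ± 0.78 SE, edgeR adjusted p = 0.00133), with KO day 4 replicate 1 highest, while Cd68 had 6.66, 5.71 and 5.2 CPM in the KO day 4 libraries, against 12, 20.8 and 26.4 CPM in the KO day 1 libraries (-1.75 ± 0.20 SE, 0.10 with library totals). Smooth muscle markers summed to 9.61, 13.4 and 15.3 CPM at KO day 4 and 7.48, 7.98 and 4.02 CPM at KO day 1. Of 8 tested, 3 rose, Acta2 among them, 1 (Smtn) fell and 4 were not called (7 and 0 with library totals). With 1 KO library left out, 3 to 4 rose and 0 to 2 fell. Acta2, smooth muscle actin, had 3.19, 5.25 and 6.87 CPM in the KO day 4 libraries, against 0.134, 0 and 0.155 CPM in the KO day 1 libraries (5.69 ± 0.71 SE). Islet markers summed to 573, 297 and 261 CPM at KO day 4 and 376, 221 and 154 CPM at KO day 1, and of 13 tested 2 rose and 1 fell (9 and 0 with library totals). The number that rose was 0 without KO day 4 replicate 1 or KO day 1 replicate 3, 1 without KO day 4 replicate 2 or 3 or KO day 1 replicate 2, and 3 without KO day 1 replicate 1. B cell, T cell and red blood cell markers stayed under 1 CPM in sum in each of these libraries. The part of these cells in the changes above was not tested.

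**Figure D4:**
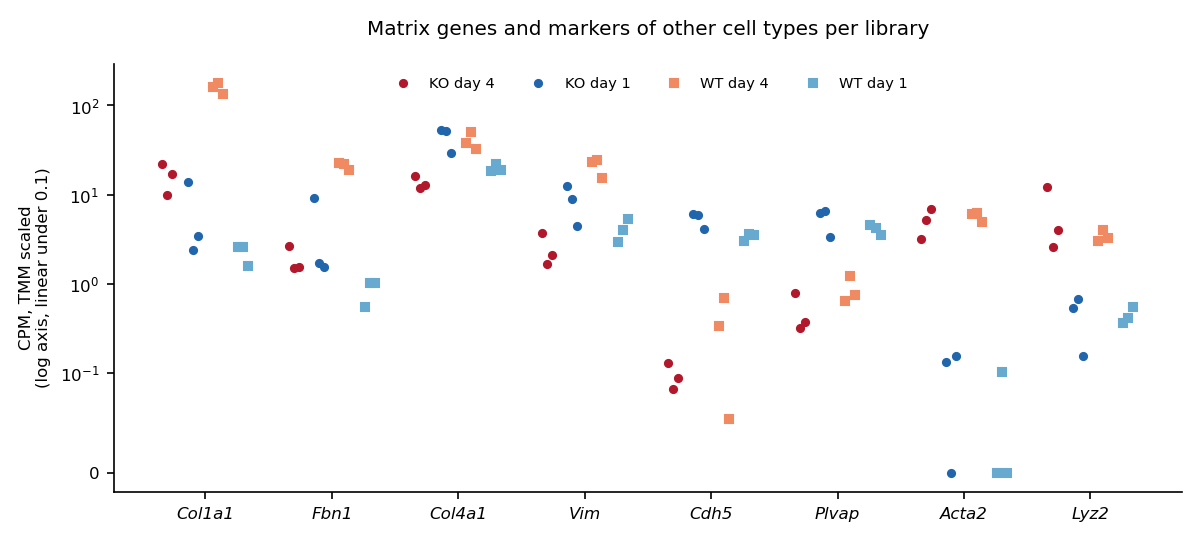
TMM-scaled CPM (log axis, linear under 0.1) of markers of fibroblasts, matrix, endothelium, smooth muscle and macrophages in the 3 libraries each of KO day 4, KO day 1, WT day 4 and WT day 1; each point is a library. Cdh5 and Plvap lie lower at KO day 4 than at KO day 1, and for Col1a1 and Fbn1 KO day 1 replicate 1 lies above the other KO day 1 libraries.

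Whether KO cells changed differently from WT cells between the same days was asked with an interaction test, the KO change minus the WT change in edgeR. It called 122 genes with a higher difference (0.924% of those tested) and 221 with a lower one (1.67%), and 1896 genes had an unadjusted p under 0.05. These counts moved with single libraries, between 55 and 176 for the higher and 125 and 260 for the lower. There were 55 higher calls without KO day 4 replicate 2 or WT day 1 replicate 1, 58 and 79 without KO day 4 replicate 3 or 1, and 59 without KO day 1 replicate 2. WT day 4 replicates 1 and 2 gave 59 and 67 when left out, and WT day 1 replicate 2 gave 79. There were 126 and 141 lower calls without KO day 4 replicate 2 or 3, 142 and 146 without WT day 4 replicate 1 or 2, and 125 without WT day 1 replicate 1. Across the 13203 genes the KO and WT changes had a Pearson's r of 0.76, a description over genes, which are not independent, from libraries that share the same fit. None of the 33 acinar enzymes and none of the 42 interferon genes was called in the interaction.

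Matrix genes made up part of the lower differences. Of 33 tested, 23 had a lower difference. In WT cells alone 28 of them were higher at day 4 and 1 was lower. The count of lower differences was 17 without KO day 1 replicate 1 and 16 without WT day 1 replicate 1. It was 11 when WT replicate 1 of each day, the only one with reads of the Y-linked Ddx3y, was left out, an alternative chosen after seeing the data. Fibroblast marker sums in WT were 418, 438 and 317 CPM at day 4 and 39.9, 48.8 and 39.9 CPM at day 1, beside the KO sums above, and the part of fibroblasts in these differences was not tested. Col4a1 changed by -1.73 in KO and 1.04 in WT (difference -2.76 ± 0.34 SE, edgeR adjusted p = 7.0e-04). Without KO day 1 replicate 1 the difference of Col4a1 was -2.62. Vim, vimentin, changed by -1.79 in KO and 2.35 in WT (difference -4.14 ± 0.56 SE, edgeR adjusted p = 0.00165). Without that library the difference of Vim was -3.79. Col1a1 differed by -4.83 ± 0.93 SE (edgeR adjusted p = 0.0172), which was no longer called without KO day 1 replicate 1 (0.0705) or WT day 1 replicate 1 (0.0549). Among the heat shock chaperones 5 of 21 had a higher difference. The count was 2 with library totals, and 2 without KO day 4 replicate 2 or WT day 4 replicate 2. It was 3 without any other 1 of the 12 libraries except KO day 1 replicate 1 and WT day 1 replicate 3, which left it at 5 and 4.

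Hsph1 changed by -1.31 in KO and -2.58 in WT (difference 1.27 ± 0.16 SE, edgeR adjusted p = 2.0e-05), and Dnajb1 by -1.92 and -2.85 (0.93 ± 0.13 SE). Pmaip1 changed by 4.04 in KO and 2.63 in WT, with an edgeR adjusted p of 0.014 for the difference. That was 0.0681 without KO day 1 replicate 2 and 0.0637 without WT day 1 replicate 2. Rbpjl changed by -1.8 in KO and -2.81 in WT (edgeR adjusted p = 0.0015). Slc7a11 had a difference of -0.42 ± 0.28 SE (edgeR adjusted p = 0.52), and Gpx4 of -0.20 ± 0.17 SE (edgeR adjusted p = 0.64). Neither was called.

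**Figure D5:**
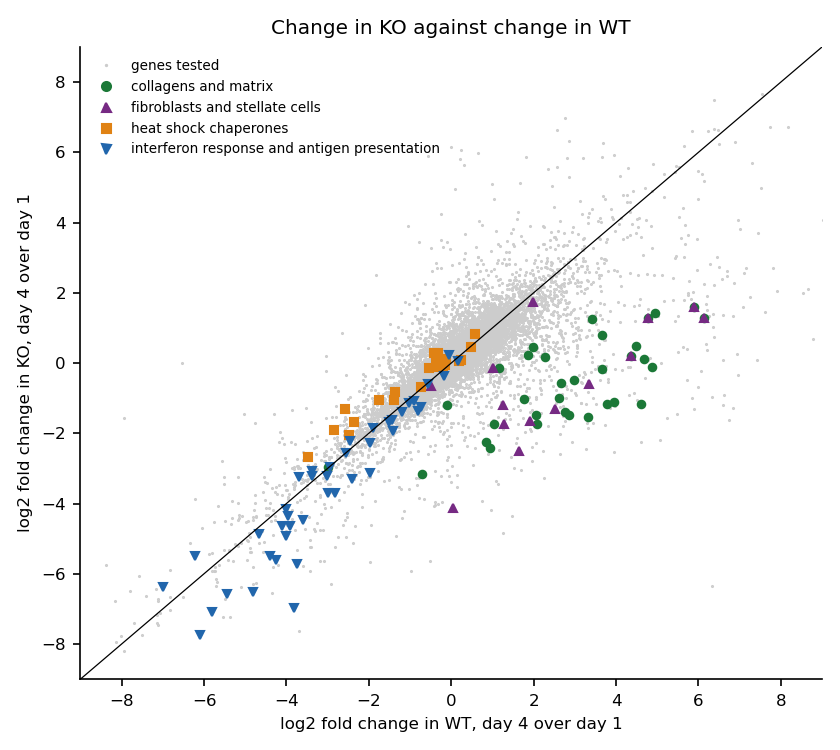
Log2 fold change of day 4 over day 1 in KO cells (y axis) against that in WT cells (x axis) for the 13203 genes tested (TMM scaling, edgeR), with the diagonal of equal change and 5 genes outside the axes; collagens and matrix, fibroblast, heat shock and interferon genes are coloured. Most collagen and fibroblast genes lie below the diagonal, heat shock genes lie partly above it and interferon genes lie at the lower left along it.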

How the data were processed

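RNA of 18 cultures was sequenced as single-end TruSeq libraries. The authors trimmed and filtered the reads, mapped them to GRCm38 with Ensembl annotation and deposited raw counts per gene from featureCounts 1.5.3. Which aligner was used, and whether counting used strand, is not given in the sources used here. The authors also deposited FPKM values for 13324 genes after full quantile normalization, which sets the same distribution in each library, so FPKM entered only alternatives.

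All 18 libraries went into 1 edgeR 4.0.16 quasi-likelihood model (R 4.3.3) with 6 groups, filterByExpr, TMM scaling and robust estimation. Calls used Benjamini-Hochberg adjusted p under 0.05 over the 13203 genes tested, and edgeR's test against a log2 fold of 1 for calls past 2-fold. CPM used TMM-scaled library sizes. The count fit was tested on simulated data that lacked the change in enzyme share, so that test does not bear on the scaling. Alternatives used DESeq2 1.42.0, limma 3.58.1 on log2(FPKM + 1) and log2(FPKM + 0.1), other scalings and filters, a replicate block and each library left out in turn. Depth was 14561075 to 19533947 counts per KO library at days 1 and 4.

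The gene groups and 51 lists were written from general knowledge with earlier results of these data known. Genes were named by rule: Slc7a11, the 12 largest changes each way among genes that were called, averaged 5 CPM or more and did not overlap between the days, up to 4 called members per list and direction with the smallest adjusted p, the 8 largest interaction differences each way, and genes that the study discusses. From these the text takes those whose role is described; some genes are not reported here. Gene positions are those of the count table; promoters are RefSeq sequences of GRCm38.p6.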

Additional observations from a re-analysis of the deposited data

Results flagged for a closer look

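The change from day 1 to day 4 differed between KO and WT cells for 23 of the genes named, each tested itself by the edgeR interaction; values are the KO change minus the WT change on the log2 scale. The difference was positive for Nfkbiz, an NF-kB regulator (1.98 ± 0.34 SE, edgeR adjusted p = 0.00219), with 18.4, 20.6 and 18.5 CPM in the KO day 4 libraries and 6.68, 3.61 and 2.55 CPM in the KO day 1 libraries. It was positive for the immediate early and stress genes Dusp1 (1.4 ± 0.17 SE, edgeR adjusted p = 9.4e-06), Gadd45b (1.27 ± 0.17 SE, edgeR adjusted p = 6.9e-05) and Atf3 (1.0 ± 0.21 SE, edgeR adjusted p = 0.0103). It was also positive for the chaperones Hsph1 (1.27 ± 0.16 SE, edgeR adjusted p = 2.0e-05) and Dnajb1 (0.93 ± 0.13 SE, edgeR adjusted p = 1.1e-04), for Paxbp1 (1.57 ± 0.26 SE, edgeR adjusted p = 4.9e-04) and Ccnl1, a cyclin of splicing (1.46 ± 0.24 SE, edgeR adjusted p = 0.00173), and for Gadd45a (0.80 ± 0.17 SE, edgeR adjusted p = 0.00639). Pmaip1 (1.41 ± 0.32 SE, edgeR adjusted p = 0.014) and Rbpjl (1.01 ± 0.18 SE, edgeR adjusted p = 0.0015) completed the positive ones.

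The difference was negative for matrix and mesenchymal genes: Fbn1 (-5.77 ± 0.92 SE, edgeR adjusted p = 0.00583), Col6a3 (-4.94 ± 0.77 SE, edgeR adjusted p = 0.00475), Col1a1 (-4.83 ± 0.93 SE, edgeR adjusted p = 0.0172), Nid1 (-4.15 ± 0.62 SE, edgeR adjusted p = 0.00274), Vim (-4.14 ± 0.56 SE, edgeR adjusted p = 0.00165) and Col4a1 (-2.76 ± 0.34 SE, edgeR adjusted p = 7.0e-04). It was negative for Snai1, an EMT factor (-5.0 ± 0.72 SE, edgeR adjusted p = 1.1e-04), Axl, a receptor kinase (-3.77 ± 0.49 SE, edgeR adjusted p = 1.1e-04), and the chemokine Ccl2 (-5.12 ± 0.78 SE, edgeR adjusted p = 0.0111). Smaller negative values belonged to Ccnd1 (-1.12 ± 0.22 SE, edgeR adjusted p = 0.00348), Vars (-0.62 ± 0.14 SE, edgeR adjusted p = 0.014) and Xbp1 (-0.51 ± 0.14 SE, edgeR adjusted p = 0.0419). Without KO day 1 replicate 1 the differences of Fbn1, Col6a3, Nid1, Vim and Col4a1 were -4.39, -3.92, -3.76, -3.79 and -2.62, and each was still called. Limma on log2(FPKM + 0.1) did not call Nfkbiz, Paxbp1, Ccnl1, Dusp1, Atf3, Gadd45b, Xbp1 or Gadd45a, limma on log2(FPKM + 1) did not call Ccnl1, Atf3, Xbp1 or Gadd45a, and library totals did not call Gadd45a. Dusp1 overlaps Ergic1 on the other strand. Without WT replicate 1 of each day, which alone had reads of the Y-linked Ddx3y, an alternative chosen after seeing the data, Atf3, Pmaip1, Fbn1, Ccl2, Col6a3, Col1a1, Ccnd1, Xbp1 and Gadd45a were no longer called. Xbp1 was called in 1 of the 12 fits with a library left out, with an edgeR adjusted p of 0.0598 to 0.163 in the others, and Vars was not called without KO day 4 replicate 2 (edgeR adjusted p = 0.0518). Pmaip1 was not called without KO day 1 replicate 2 (edgeR adjusted p = 0.0681) or WT day 1 replicate 2 (edgeR adjusted p = 0.0637), nor Col1a1 without KO day 1 replicate 1 (edgeR adjusted p = 0.0705) or WT day 1 replicate 1 (edgeR adjusted p = 0.0549).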

How the results depend on the processing

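Scaling decided the balance of calls. With library totals 12031 genes were higher and 347 lower (10502 and 222 past 2-fold), and with totals that left out the acinar enzymes 6757 and 1645 (1205 and 494). Other settings left the counts of higher and lower genes within 1.5 times, and leaving out 1 library gave 2947 to 3277 and 3191 to 3444. Calls past 2-fold numbered 281 higher by DESeq2, 247 and 501 with at least 10 counts in every library, 111 and 200 by limma on log2(FPKM + 1), and 193 and 370 on log2(FPKM + 0.1). They were 352 to 494 higher and 692 to 735 lower with 1 library left out.

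The interaction count was less stable. Higher differences numbered 23 with library totals, 55 with totals without enzymes, 276 by DESeq2, 57 by limma on log2(FPKM + 0.1), 244 from the 12 libraries of days 1 and 4 alone and 32 from WT libraries with no Ddx3y. Lower differences numbered 406 by DESeq2, 360 with no filter, 106 with at least 10 counts in every library, 118 and 117 by limma with a pseudocount of 1 or 0.1, and 77 from WT libraries with no Ddx3y. With 1 library left out they were 55 to 176 and 125 to 260. The cause was not tested.

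Log2 fold changes of KO day 4 over KO day 1 that changed sign with library totals were Slc7a11 0.52, Bhlha15 0.21, Rbpjl 0.026, Xbp1 1.06, Sox9 1.22, Myc 0.86, Muc1 0.58, Krt8 0.20, B2m 1.47, Pck2 0.088, Trib3 0.34, Asns 0.48, Chac1 0.79, Aldh1l2 0.21, Slc3a2 0.53, Vars 0.79, Hsph1 0.52, Msmo1 0.33, Srebf2 0.76, Gclc 1.43, Gclm 1.56, Gpx4 1.77, Cbs 0.68, Gadd45a 0.20, Bcl2l1 1.0, Mcm3 0.94, mt-Cytb 0.56, Fbn1 0.65, Col4a1 0.10, Cd68 0.10 and Reg3a 0.90. With totals without enzymes they were B2m 0.085, Gclc 0.047, Gclm 0.18 and Gpx4 0.39. Gpx4 was 0.030 with upper quartile scaling, 0.019 with no filter, 0.52 and 0.54 by limma with a pseudocount of 1 or 0.1, and -0.14 to 0.018 with 1 library left out (0.018 without KO day 1 replicate 1). With 1 library left out Gsr was -0.058 to 0.15 (-0.031 without KO day 1 replicate 1 and -0.058 without KO day 1 replicate 3), and Fbn1 was -1.54 to 0.22 (0.22 without KO day 1 replicate 1). Of 139 called genes named, 102 kept their direction and call with library totals, 10 kept the sign but lost the call, and 27 changed sign. Those 27 were counted by sign alone. Among them Slc7a11, Bhlha15, Rbpjl, Krt8, Pck2, Aldh1l2, Msmo1, Gadd45a, Col4a1 and Cd68 were not called with library totals. DESeq2 size factors kept direction and call for 138, and limma with a pseudocount of 1 or 0.1 for 129 and 129.

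Same-numbered KO libraries of days 4 and 1 had correlated deviations of 0.22, 0.048 and 0.22, and KO day 4 replicate 2 correlated best with KO day 1 replicate 3 (0.089). Same-numbered WT libraries had 0.10, 0.13 and 0.027, each the highest for its WT day 4 library, and WT replicate 1 alone had Ddx3y reads on every day. Since the correlation was not over 0.1 in every pair, the numbers were not taken as pairs. A fit with a replicate block called 3338 higher and 3448 lower genes (442 and 743 past 2-fold), and 92 and 230 in the interaction. Of the named calls it lost only those of Gss and, in the interaction, Xbp1. Genes with few counts had wide errors (Flt1 ± 0.60 SE).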
